A study of Mus musculus with 6 samples.

Results

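RUNX1 binding was examined at 7 mouse genes of estrogen and glucocorticoid signalling. They are the receptor genes Esr1, Esr2 and Nr3c1, the coregulator and estrogen-response genes Nrip1 and Greb1, and Sult1e1 and Cyp1b1, whose enzymes inactivate or convert estrogens. The members were taken from a fixed list of symbols, chosen with earlier results of these data known. A RUNX1 peak was assigned to a gene when its summit lay inside the gene or within 50 kb of either end in RefSeq on GRCm38. All 7 symbols were found among 21883 protein-coding genes. Together they held 90 of the 51515 peaks of 4 peak lists. The outermost peak inside the 50 kb limit lay 39832 bp from Greb1, in 6 h replicate 2, with a fold enrichment over background of 8.62. The first ones outside lay 50162 bp from the same gene in 6 h replicate 2, with a fold of 14.4, and 50172 bp from it in replicate 1, with a fold of 10.3.

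Estrogens act through ESR1 and ESR2, ligand-activated transcription factors that bind DNA and recruit coregulators. ESR2 is the main estrogen receptor of granulosa cells, the somatic cells around the oocyte in the follicle. Granulosa cells of growing follicles make estradiol, and the ovulatory surge of luteinising hormone ends that production while the cells switch towards progesterone. RUNX1 is a DNA-binding transcription factor of the Runt family that is induced in granulosa cells by that surge.

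The libraries came from granulosa cells of mice from a CBA x C57BL/6 F1 cross, 21 days old. Per the labels' protocol, eCG (5 IU of equine chorionic gonadotropin) was injected to make follicles grow. After 46 h it was followed by hCG (5 IU of human chorionic gonadotropin), a substitute for the luteinising hormone surge. Chromatin was immunoprecipitated with a RUNX1 antibody and sequenced. The group labelled 0 h after hCG (pre-ovulatory granulosa cells) and the group labelled 6 h after hCG (peri-ovulatory granulosa cells) had 2 libraries each, and each time point had 1 pooled input. The protocol text describes the 6 h collection alone, and the 0 h group is known from sample titles and a time-point label. The labels do not say whether the libraries of a group came from separate animals, so the spread between them may be technical. Peak lists carry no expression, so the labelled cell type was not tested against markers.

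The lists differed in length, with 948 and 3135 peaks in 0 h replicates 1 and 2 and 18761 and 28671 peaks in 6 h replicates 1 and 2. The number of reads per library is not given in the sources used here. The genome-wide background recovered from the peak statistics was 2.77 and 2.65 reads per position at 0 h and 2.76 and 2.13 at 6 h. A site without a peak is one below the limit of its list, which lay at a −log10 p of about 9 in all 4 lists, and not one shown to be free of RUNX1.

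RUNX1 peaks overlapped a promoter window of RefSeq at 3 genes, Esr2, Nrip1 and Greb1, and at 6 h alone. Among 17491 protein-coding genes with such a window, 45.5% had one that overlapped a peak of either 6 h library and 7.32% one that overlapped a 0 h peak. The promoter table of RefSeq (GRCm38.p6) gives windows from 250 bp before to 50 bp after a gene start, and it held windows for 6 of the 7 genes, Nr3c1 being the one without. Peaks met the window of Esr2, one of the windows of Greb1 and both windows of Nrip1. The 250 bases before the start are shown for the 3 genes because they hold the summits of the peaks, read 5′ to 3′ on the minus strand, which is the strand of each of these genes. In Esr2 the capitals mark the core RUNX motif TGTGGT. In Greb1 they mark TGACCT, a short motif bound by nuclear receptors. In the downstream of the pair of Nrip1 windows they mark the bases from the summit of 6 h replicate 1 to that of 6 h replicate 2.
Esr2, chr12:76177260-76177509, minus strand: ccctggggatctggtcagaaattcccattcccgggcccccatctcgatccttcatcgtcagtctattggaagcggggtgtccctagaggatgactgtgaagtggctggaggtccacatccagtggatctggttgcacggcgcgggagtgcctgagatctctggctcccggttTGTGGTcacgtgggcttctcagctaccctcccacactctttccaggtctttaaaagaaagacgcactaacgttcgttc
Greb1, chr12:16800887-16801136, minus strand: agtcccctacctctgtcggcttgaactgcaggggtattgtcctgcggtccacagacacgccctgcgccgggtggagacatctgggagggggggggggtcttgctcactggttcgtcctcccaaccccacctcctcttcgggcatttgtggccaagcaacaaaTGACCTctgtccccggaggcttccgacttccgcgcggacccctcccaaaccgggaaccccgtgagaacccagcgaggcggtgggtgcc
Nrip1, chr16:76373050-76373299, minus strand: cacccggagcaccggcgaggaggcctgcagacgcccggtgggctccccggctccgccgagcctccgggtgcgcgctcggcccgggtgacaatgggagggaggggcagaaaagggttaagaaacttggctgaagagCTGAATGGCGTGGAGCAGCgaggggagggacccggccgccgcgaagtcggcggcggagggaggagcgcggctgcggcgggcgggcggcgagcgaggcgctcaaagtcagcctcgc

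In Esr2 the motif covers positions −78 to −73 from the start. The summit was at −67 in 6 h replicate 1 and at −21 in 6 h replicate 2. In Greb1 the motif covers positions −88 to −83, and the summit was at −82 in 6 h replicate 2, the one library with a peak there. The Nrip1 summits were at −115 and −97 from the downstream start. The upstream Nrip1 window met a peak of 6 h replicate 2 alone, with its summit at −175.

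A total of 5 motifs was searched on both strands of the full windows. TGTGGT was found in 16.8% of 32851 promoter windows of the table and, among the windows of the 6 genes, only in that of Esr2. Only this form of the RUNX core was searched, so a window without it may hold another form. TGACCT was in 16.3% of all windows, and in those of Greb1 and Sult1e1. The AP-1 site TGANTCA (7.81% of windows), the palindromic glucocorticoid response element (GNACA and TGTNC with 3 bases between them, 0.475%) and the estrogen response element (GGTCA and TGACC with 3 bases between them, 0.0700%) had no match in any window of the 6 genes. A match is a string of letters, and its part in binding was not tested.

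All 7 genes had a region called in both 6 h libraries within their window, and 3 of them, Nrip1, Greb1 and Cyp1b1, had a region called in both 0 h libraries. Among all protein-coding genes the shares under the same rules were 68.9% at 6 h and 8.76% at 0 h. The median window was 186420 bp at the 7 genes and 117170 bp at all genes. No share of genes here was adjusted for window length. The 3 receptor genes and Sult1e1 had a peak in both 6 h libraries and in no 0 h library, a pattern shared by 40.6% of all genes. In each of the 7 genes both 6 h counts exceeded both 0 h counts, which held for 64.7% of all genes.

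**Figure D1:**
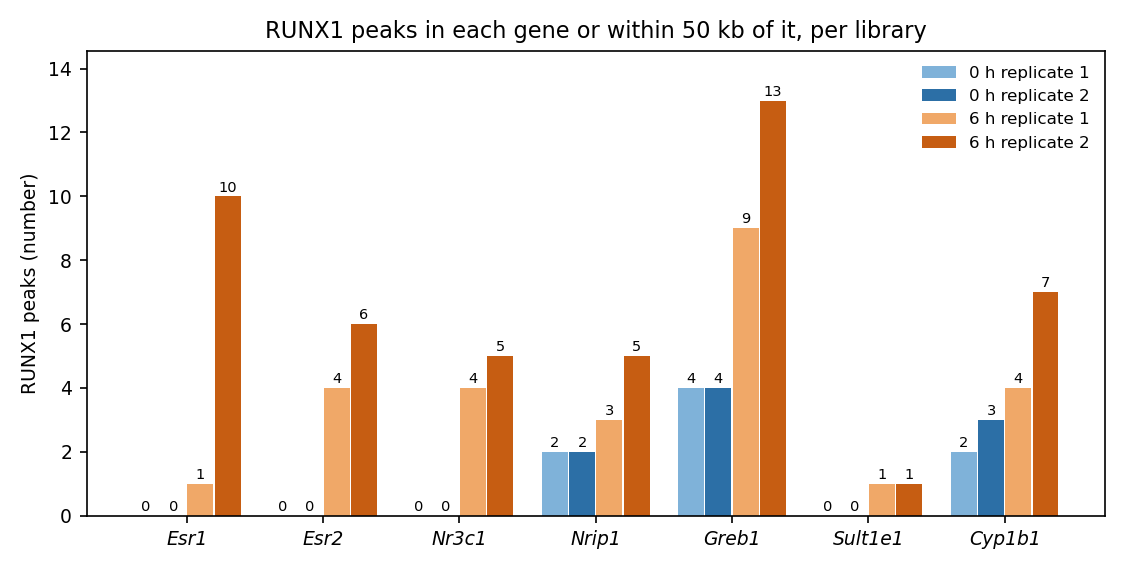
Number of RUNX1 peaks (vertical axis) with a summit inside each gene or within 50 kb of it, 1 bar per library; numbers above the bars are the counts. Esr1, Esr2, Nr3c1 and Sult1e1 have peaks in the 6 h libraries alone, and Greb1 has the highest bar in each library, 4 in both 0 h libraries and 9 and 13 in the 6 h libraries.

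The 7 windows held 8 and 9 peaks in the 0 h libraries and 26 and 47 in the 6 h libraries. The means were 8.50 ± 0.707 and 36.5 ± 14.8 (SD, n = 2 each). On the scale of log2(peaks + 1) the 6 h libraries were 1.92 higher (exact permutation test, two-sided, p = 0.333, the smallest p that 2 libraries against 2 can give). This difference turned with the length of the lists. With the 948 peaks of lowest p-value taken from each library, the windows held fewer peaks at 6 h, a log2 difference of −0.99 (exact permutation p = 0.333).

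Measured against their own lists, the 7 windows weighed more at 0 h. They held 0.844% and 0.287% of the 0 h peaks and 0.139% and 0.164% of the 6 h peaks. The means were 0.565% ± 0.394 at 0 h and 0.151% ± 0.0179 at 6 h, a ratio of 3.74. The 0 h values do not overlap the 6 h values, but the design allows no p below the 0.333 found (exact permutation test, two-sided). The 0 h mean rests on replicate 1. Without that library the difference of 6 h from 0 h was −0.136 percentage points, and without 0 h replicate 2 it was −0.693, against −0.414 with both.

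In lists of equal length, 3 of the 7 genes kept a peak in any library, against 17.7% of all genes. Greb1 had 4 and 3 among the strongest 948 peaks of the 0 h libraries and 3 in each 6 h library. Nrip1 had 2 and 1 at 0 h and none at 6 h, and Cyp1b1 had 2 in each 0 h library and none at 6 h. The receptor genes and Sult1e1 had none in any library.

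Counts were also ranked among all protein-coding genes. The mean 0 h count was 4 at Greb1, above 99.9% of all protein-coding genes, 2.50 at Cyp1b1, above 99.0%, and 2 at Nrip1, above 97.6%. At least 4 peaks in each 0 h library were found at 10 genes in all, or 0.0457%, Greb1 included. At least 2 in each 0 h library were found at 1.25% of genes, among them Greb1, Cyp1b1 and Nrip1. At 6 h the mean count of Greb1, 11, was above 98.3% of genes, and the others ranged from 1 at Sult1e1, above 28.5%, to 5.50 at Esr1 and Cyp1b1, above 82.8%. The mean at Esr1 joins counts of 1 and 10.

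Long genes have long windows, so counts were also taken per 100 kb of window. On this scale Cyp1b1 had 2.31 peaks per 100 kb at 0 h and 5.09 at 6 h, above 99.4% and 89.0% of genes. Greb1 had 1.73 and 4.77, above 98.4% and 87.5%. Esr1, whose gene is 393645 bp long, had 1.11 at 6 h, above 42.9% of genes and below the median of 1.49, with 0.203 in replicate 1 and 2.03 in replicate 2, one below and one above that median. Esr2 had 3.19, above 75.0%. Nr3c1 had 2.15, above 61.4%, Nrip1 had 2.15, above 61.3%, and Sult1e1 had 0.865, above 36.5%.

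**Figure D2:**
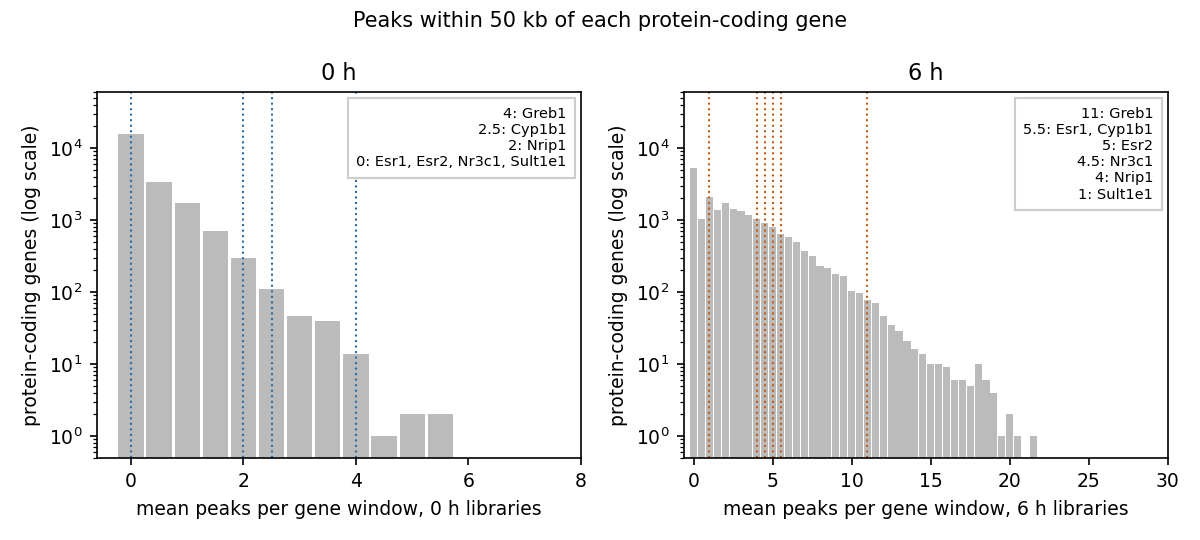
Histogram of the mean number of peaks per gene window (horizontal axis, 50 kb beyond each gene end) over 21883 protein-coding genes (vertical axis, log scale), at 0 h on the left and 6 h on the right. Dotted lines and boxes give the 7 genes; at 0 h Greb1 lies at 4, Cyp1b1 at 2.5 and Nrip1 at 2, and the other 4 genes at 0.

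Merging overlapping peaks of the 4 libraries gave 49 sites at the 7 genes. Of these, 7 were called in all 4 libraries, 16 in both 6 h libraries and neither 0 h library, 22 in 6 h replicate 2 alone and 2 in 6 h replicate 1 alone. Summits of 35 sites lay inside the gene. Exons were not used here, so exons and introns were not separated. Sequence was read in promoter windows alone.

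The receptor genes had peaks after hCG and none in the 0 h lists. Esr2, on the minus strand of chromosome 12 (76120419 to 76177259), had 4 and 6 peaks in the 6 h libraries. Its promoter site, chr12:76176919-76177576, had a fold of 9.57 and 10.2 in 6 h replicates 1 and 2, with 47 reads at the summit in each. These folds ranked at percentiles 58.9 and 45.6 of their lists, in the middle of them.

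A total of 3 further Esr2 sites inside the gene were called in both 6 h libraries. The one with the most reads, chr12:76132401-76132955, lay 44624 bp downstream of the start with 48 and 96 reads. Its fold of 4.98 in replicate 1 and 12.4 in replicate 2 stood beside a background of 8.84 and 6.83 reads. The site at chr12:76148268-76148805 had 40 and 35 reads, and the site at chr12:76152364-76152780 had 48 and 49. Of the remaining pair, called in replicate 2 alone, one lay inside the neighbouring gene Syne2.

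Esr1, the gene of the estrogen receptor alpha on the plus strand of chromosome 10 (4611989 to 5005633), had 1 peak in 6 h replicate 1 and 10 in replicate 2. The counts of the 6 h libraries thus lay far apart at this gene, while their lists differed 1.53-fold in length. The single site in both, chr10:4621120-4621771, lay 9408 bp downstream of the first listed start, with 34 and 50 reads and a fold of 8.0 and 10.8. All 10 sites lay inside the gene. The 9 seen in replicate 2 alone had 20 to 48 reads, the strongest at chr10:4632040-4632439 with a fold of 15.6. No peak met either promoter window of Esr1.

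Nr3c1, the gene of the glucocorticoid receptor on chromosome 18 (39410545 to 39519421), had 4 and 5 peaks in the 6 h libraries. Inside the gene, 3 sites stood side by side in both libraries, 28045 to 29818 bp from its end of higher coordinate. The strongest, chr18:39488726-39490072, had 56 and 90 reads and a fold of 13.5 and 29.0, which ranked it at percentiles 80.3 and 93.5. The other site called in both, chr18:39523198-39523788, lay 3994 bp outside the gene with 54 and 82 reads and a fold of 11.0 and 17.6. Summits of the 6 h replicates lay 3 bp apart there.

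Sult1e1 encodes the estrogen sulfotransferase, which conjugates estradiol to an inactive sulfate. It lies on the minus strand of chromosome 5 (87575968 to 87591611) and had 1 peak in each 6 h library, at chr5:87586059-87586443, inside the gene and 5371 bp downstream of its start. The site had 48 and 70 reads and a fold of 6.60 and 13.3, placing it at percentiles 24.4 and 65.1. Its promoter window met no peak.

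**Figure D3:**
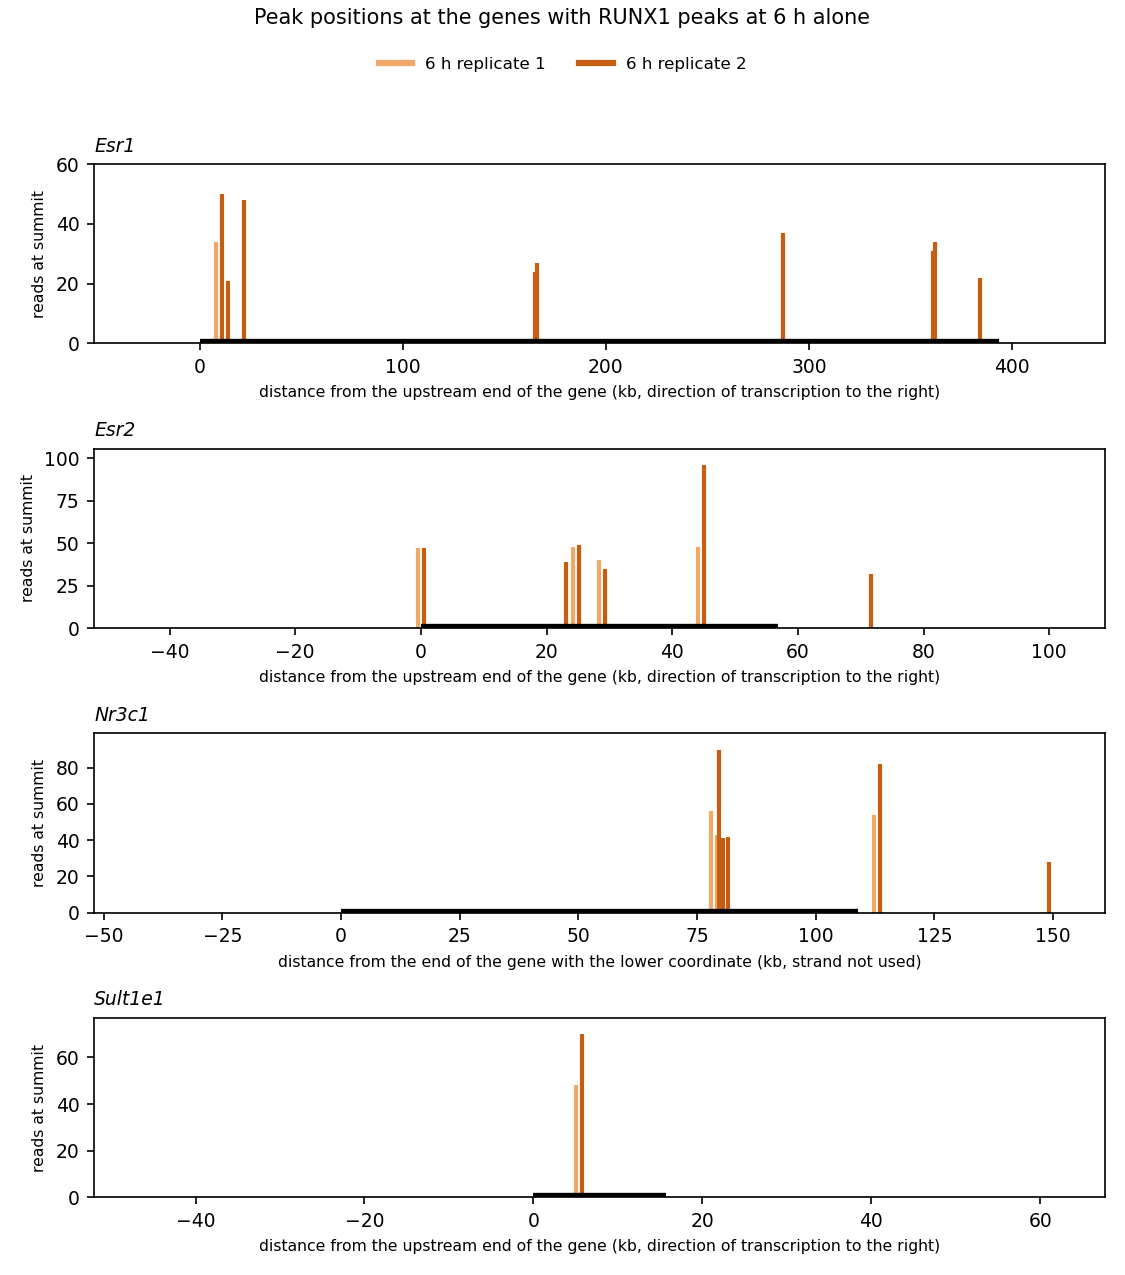
Reads at the summit of each peak (vertical axis) against the distance from the gene end (horizontal axis, kb) at the 4 genes with 6 h peaks alone; black bars are genes, and lines of the 2 libraries are drawn slightly apart. Esr1 has 1 site in both libraries, Esr2 and Nr3c1 have 4 each and Sult1e1 has 1.

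Greb1, an early estrogen-response gene whose protein binds the estrogen receptor, carried the strongest binding of the 7 genes. It lies on the minus strand of chromosome 12 (16670615 to 16801394). Both 0 h libraries had 4 peaks, and the 6 h libraries had 9 and 13. The strongest site, chr12:16760089-16761056, had a fold of 23.0 and 20.01 at 0 h and 46.6 and 72.6 at 6 h. By fold this was peak number 5 of 948 and 32 of 3135 in the 0 h lists, and number 43 of 18761 and 35 of 28671 in the 6 h lists. It had 105 and 102 reads at the summit at 0 h and 233 and 279 at 6 h.

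A site on either side of it was also called in all 4 libraries. Between the strongest site and the one of lower coordinate lay a weak site, chr12:16759395-16759862, with 25 reads in 6 h replicate 1 and no peak in the other libraries. The 3 sites in all libraries flank a second listed start of Greb1 inside the gene, at position 16757239. The strongest site lay 3342 bp upstream of that start. The site at chr12:16763915-16765920 lay 7650 bp upstream of it, with 102 and 77 reads at 0 h and 208 and 246 at 6 h. Another, at chr12:16755665-16756859, lay 1121 bp downstream of it, with 69 and 76 reads at 0 h and 206 and 234 at 6 h. No peak met the promoter window of this start. One more site in all libraries, chr12:16745459-16745784, was weaker, with 30 and 34 reads at 0 h and 46 and 63 at 6 h.

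Greb1 also had sites seen only at 6 h. The strongest, chr12:16790410-16790913, lay 10277 bp downstream of the first listed start with 104 and 133 reads, at percentiles 96.3 and 97.2 of the 6 h lists. No 0 h library had a peak there. A site at chr12:16810790-16811399, within the window, had its summit inside the neighbouring gene E2f6 and 195 bp from an end of it.

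Nrip1 encodes a corepressor of nuclear receptors that female mice need for ovulation. It lies on the minus strand of chromosome 16 (76287403 to 76373827), and its nearest other protein-coding gene was at least 391449 bp from each of its sites. A pair of sites deep inside the gene was called in all 4 libraries. At chr16:76321554-76322045 there were 47 and 51 reads at 0 h and 69 and 112 at 6 h. This site ranked at percentiles 91.8 and 95.4 at 0 h and 91.0 and 96.5 at 6 h. Its summits in the 4 libraries lay within 28 bp. The other, chr16:76323499-76324233, had 62 and 42 reads at 0 h and 119 and 133 at 6 h.

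The promoter site of Nrip1, chr16:76372955-76373653, was called at 6 h alone. It had 56 and 59 reads and a fold of 15.2 and 18.5, placing it at percentiles 85.1 and 82.0. The pair inside the gene lay about 50 kb downstream of the start.

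Cyp1b1 encodes a cytochrome that hydroxylates estradiol to catechol estrogens, and it lies on the minus strand of chromosome 17 (79706940 to 79715061). It had 2 and 3 peaks at 0 h and 4 and 7 at 6 h. One site in all 4 libraries, chr17:79715565-79716212, lay 889 bp upstream of the start with 38 and 37 reads at 0 h and 70 and 78 at 6 h. Its fold went the other way, from 8.46 and 8.53 at 0 h to 4.59 and 6.84 at 6 h. At this summit the 0 h lists had a background of 3.61 and 3.46 reads and the 6 h lists one of 14.46 and 10.6. Fold is the ratio of reads to background, with 1 added to each, so it fell here as the background rose by more than the reads. What set the background was not tested.

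Another Cyp1b1 site, chr17:79718475-79718764, lay 3549 bp upstream with 43 and 44 reads at 0 h. It had 52 reads in 6 h replicate 2 and no peak in 6 h replicate 1. It was the only replicated 0 h site of the 7 genes that was missing from a 6 h list. The strongest site of the window at 6 h, chr17:79746087-79746699, lay 31301 bp upstream with 86 and 147 reads, at percentiles 89.3 and 96.5. It had 49 reads in 0 h replicate 2 and no peak in 0 h replicate 1.

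**Figure D4:**
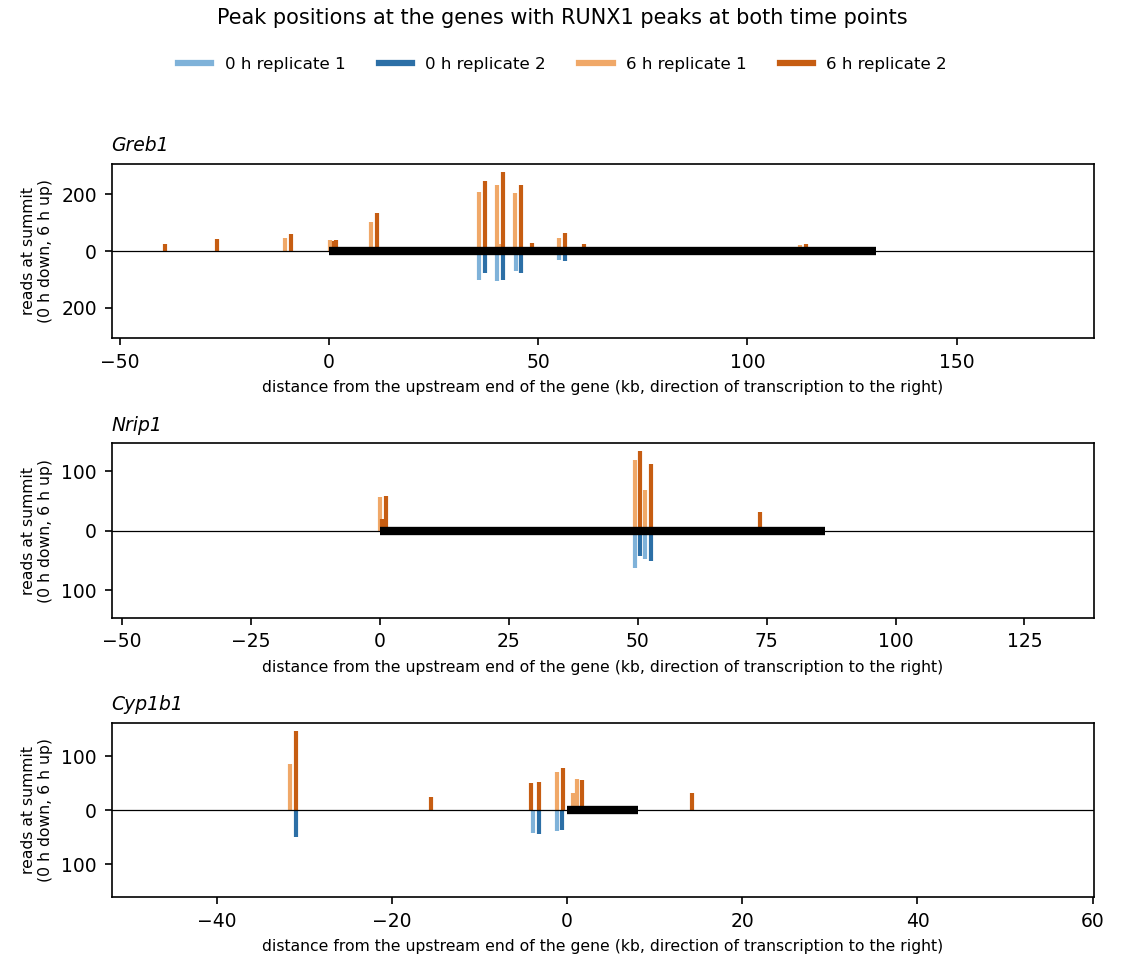
Reads at the summit of each peak (vertical axis, 6 h upwards and 0 h downwards) against the distance from the upstream gene end (horizontal axis, kb) at Greb1, Nrip1 and Cyp1b1; black bars are genes, and lines of the libraries are drawn slightly apart. The 3 Greb1 sites with the most reads stand inside the gene at both time points, and the promoter site of Nrip1 appears at 6 h alone.

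The 7 sites called in all 4 libraries were compared by the reads at the summit divided by the genome-wide background of the library. At each of the 7 both 6 h libraries exceeded both 0 h libraries, as did 91.2% of the 795 sites of the genome called in all 4 libraries. The ratio of the 6 h mean to the 0 h mean ran from 1.95 at the weakest Greb1 site to 3.44 at the Greb1 site downstream of the internal start. It was 2.82 at the strongest Greb1 site, 2.90 at its upstream neighbour, 2.14 and 2.76 at the Nrip1 pair and 2.24 at Cyp1b1. All 7 ratios lay below the genome-wide median of 3.73, whose middle range from the first to the third quartile was 2.43 to 4.94. By the fold over local background, a scale chosen after seeing the data, both 6 h libraries exceeded both 0 h libraries at 5 of the 7, as at 82.1% of the 795. The exceptions were the Cyp1b1 site described above and the weakest Greb1 site, whose fold was 7.03 and 8.27 before hCG and 5.20 and 10.7 after it.

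**Figure D5:**
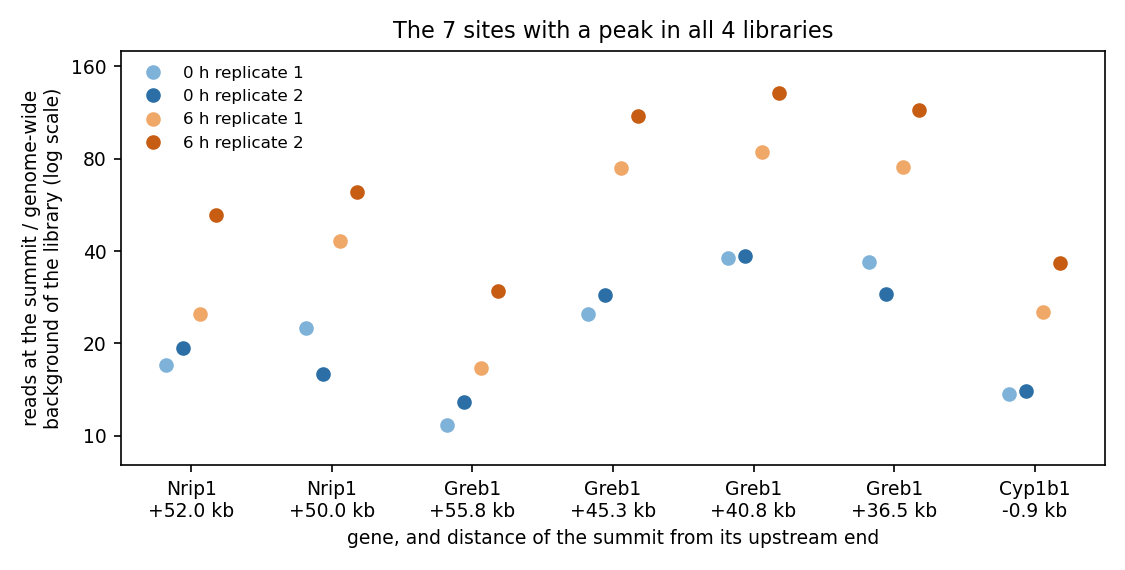
Reads at the summit divided by the genome-wide background of the library (vertical axis, log scale) at the 7 sites with a peak in all 4 libraries, named by gene and distance from its upstream end; each point is 1 library. At each site both 6 h points lie above both 0 h points, and the 3 Greb1 sites with the most reads reach 74.6 to 131 at 6 h.

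The 7 windows held 24 regions called in both 6 h libraries. A 0 h peak overlapped 8 of them, or 33.3% (95% Clopper-Pearson interval 15.6 to 55.3), against 16.5% of all 17190 such regions (15.9 to 17.1), a share that lies inside the first interval. Those 8 lay at Greb1, Nrip1 and Cyp1b1, 4, 2 and 2 of them. Counting only 0 h regions called in both 0 h libraries, 7 of the 24 overlapped one, or 29.2% (12.6 to 51.1). The share was 4.60% of all regions (4.29 to 4.93). Of those 7, 4 lay at Greb1, 2 at Nrip1 and 1 at Cyp1b1. In the other direction, each of the 8 regions called in both 0 h libraries overlapped a 6 h peak, as did 98.6% of all 847 such regions. Summits of 6 of the 24 lay within 1 kb of an end of any annotated gene, or 25% (9.77 to 46.7), against 50.8% of all regions (50.04 to 51.5). Intervals cover counting error only, and regions of 1 gene are not independent of each other. The 7 genes were chosen with earlier results of these data known, so the intervals are no test of the set.

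The 16 sites called in both 6 h libraries and no 0 h library had 22 to 133 reads at the summit. The median was 48 and 53 in replicates 1 and 2.

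Other genes of the pathways were taken from lists of steroid receptors, coactivators, corepressors, estrogen synthesis and inactivation, estrogen targets and glucocorticoid receptor partners. Of 70 such genes, 64 had a region called in both 6 h libraries within 50 kb, or 91.4%, against 68.9% of all genes. This was not adjusted for window length either. A region called in both 0 h libraries was found near 6, or 8.57%, against 8.76% of all genes. For the 7 genes the counts were 7 and 3. The median number of 6 h regions was 3 at the 7 genes, 3 at the pathway genes and 2 at all genes.

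By role, the nuclear receptor coactivators had a 6 h region at 15 of 15 genes and a 0 h region at 3, Ncoa3, Crebbp and Ddx5. Here and below a region is one called in both libraries of its time point, so genes without a 0 h region may have peaks in a single 0 h library. Ncoa7 had the most peaks of this list, 10 and 18 at 6 h. Of 12 corepressors, 11 had a 6 h region and none a 0 h region. Of 7 further steroid and estrogen-related receptors, 5 had a 6 h region and none a 0 h region. Esrra had 8 and 10 peaks at 6 h, and Pgr, the progesterone receptor, had 2 and 6.

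The enzymes of estrogen synthesis in the table had a 6 h region at 4 of 4 genes and a 0 h region at none. Cyp19a1, the aromatase that makes estradiol, had 5 and 7 peaks at 6 h and Hsd17b1 had 11 and 10. In 0 h replicate 2 alone, Cyp19a1 had 1 peak and Hsd17b1 had 2. Among 10 genes of estrogen inactivation and catechol metabolism, 9 had a 6 h region and 1, Sult2b1, a 0 h region. The 11 estrogen target genes had a 6 h region at 9 and a 0 h region at none, with 6 peaks in each 6 h library at Myc. All 12 partners and targets of the glucocorticoid receptor had a 6 h region, and Fkbp5 and Per1 also had a 0 h region. Fkbp5, a cochaperone of that receptor, had 16 and 20 peaks at 6 h and 2 and 3 at 0 h, and its strongest 6 h region had a fold of 42.3 and 59.0.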

How the data were processed

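Per the submitters' processing notes, reads were handled with Bowtie2 2.2.5 and MACS2 on mm10, which is GRCm38. Per the peak names, MACS2 was run for each library against an input. Its version and the filters are not given in the sources used here. The authors deposited for each peak the fold enrichment over background (a ratio), both p-value and q-value as −log10, and a score, which was not used. Percentiles were taken within a list, and fold was compared between time points only at sites called in all 4 libraries.

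The gene table is RefSeq GRCm38.p6. Summits within 1 kb of a gene end made up 45.9% of peaks, and 10.3% after a shift of 100000 bp. Reads at the summit and background were solved from fold and p-value allowing a misfit of 0.005 in −log10 p, which succeeded for 100% of peaks. Peaks sharing 1 bp were 1 site. Scripts used Python 3.11.15, numpy 2.4.6, scipy 1.17.1 and pandas 2.3.3, and were tested on simulated data.

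Time points were compared over libraries with exact permutation tests. The 7 genes and the pathway lists were chosen with earlier results of these data known. All 7 were named, and of each pathway list up to 3 genes with the most 6 h regions and those with a 0 h region were eligible; examples are given. For each gene with a promoter window that met a peak, 1 such window is shown. Sts was not matched and is not used here. Alternatives covered the window, the peak limit, equal lists, the overlap rule, each library left out and the replicate block.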

Additional observations from a re-analysis of the deposited data

How the results depend on the processing

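With equal lists of 948 peaks per library, the log2 difference in peaks turned to −0.99 and the difference in the number of genes with a peak from 4 to −2. The per-gene differences of 6 h from 0 h turned to −1.5 at Nrip1, −0.5 at Greb1 and −2 at Cyp1b1, and the regions called in both 6 h libraries fell from 24 to 3, of which 100% overlapped a 0 h peak. Equal lists hold fewer 6 h peaks by construction, and no other cause was tested. A window of 100 kb gave 37 such regions. Leaving out 1 library gave 1.51 to 2.34 for the log2 difference in peaks, −0.693 to −0.136 for the share of the list, 4 for the genes with a peak, 26 to 47 for the 6 h regions and 19.1% to 33.3% for the share with a 0 h peak. Without 6 h replicate 1 there were 47 peaks in place of the 24 regions, because the remaining library needs no partner, and Esr1 counted 10 against 1 without 6 h replicate 2. With the replicate block the differences of 1.92, −0.414 and 4 had an exact permutation p of 0.5, the smallest that 2 pairs can give. The deviations of same-numbered libraries correlated at −0.0300 over gene windows, so the numbers were not taken to pair the libraries. Of 50 alternative values of the 5 summary results, 44 were classed as unchanged. For the 3 results with an exact permutation test that class covers direction alone, because no p could fall below 0.333. Of 63 per-gene differences, 34 kept their value or moved by less than the SD between replicates. A further 26 moved by at least that SD, and 3 reversed. All other settings, the limit of 20 on −log10 q and the 10 kb window among them, left the direction of each summary result as it was. With that limit on q the difference in the share of the list was −1.02 percentage points, against −0.414 in the main setting. The lists' limit on p sets what could be seen at 0 h, and the depth of the libraries is known only through their background.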

Other observations

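The protein-coding genes whose 4 counts were most like those of the 3 genes with the most peaks were found by the Euclidean distance of log2(peaks + 1) over the 4 libraries, ties going to the closest window length. Next to Greb1 came Dbndd2, Sys1 and Trp53tg5, neighbours on chromosome 2 that share peaks, each with 3 and 4 peaks at 0 h and 9 and 14 at 6 h, at a distance of 0.337. The same 4 counts as Cyp1b1 were found at Bcr, and Zyx and Epha1 on chromosome 6 followed at 0.193. Gnaz, Urgcp and Atf6 had the same 4 counts as Nrip1.

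Of the 22 sites seen in 6 h replicate 2 alone, Esr1 held 9, Greb1 5, Cyp1b1 3, Esr2 and Nrip1 2 each, Nr3c1 1 and Sult1e1 none. Windows differ in length, and per 100 kb of window Cyp1b1 had 2.77 such sites, Greb1 2.17, Esr1 1.82, Esr2 1.28, Nrip1 1.07 and Nr3c1 0.479. At the weakest Greb1 site called in all libraries, the background was 3.41 and 3.23 reads before hCG and 8.04 and 4.97 reads after it. At the Greb1 site downstream of the internal start the 0 h lists had 3.46 and 3.32 and the 6 h lists 10.4 and 8.07. At the strongest Greb1 site the 0 h lists had 3.61 and 4.15 and the 6 h lists 4.02 and 2.86.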
